A study of Mus musculus with 288 samples.

Results

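The genes described here make the catecholamines dopamine, noradrenaline and adrenaline, or receive noradrenaline and adrenaline at the cell surface. The group was named by gene symbol as Th, Ddc, Dbh, Pnmt, Adra1a, Adra1b, Adrb1 and Adrb3. Of these 8 genes, 5 (Th, Ddc, Dbh, Pnmt and Adra1b) had a probe set annotated to that symbol alone, 1 each, among 19938 genes measured in this way, and the other 3, all receptors, were not analysed here. The receptors are therefore represented by Adra1b.

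RNA came from C57/BL6 mice kept for 1 week under 12 h of light and 12 h of dark and then held in darkness while tissue was collected. All animals shared this strain and lighting, and the labels list no treatment, so the groups are 12 tissues at 24 times: liver, kidney, adrenal gland, heart, aorta, lung, skeletal muscle, the brown and white adipose depots, and the brain regions hypothalamus, brainstem and cerebellum. Arrays of a tissue are 2 h apart, the first at circadian time (CT) 18 and the last at CT64, where CT0 is the hour at which the lights would have come on. Each of the 288 arrays holds RNA pooled from 3 mice, whose age and sex are not given in the sources used here.

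Th (tyrosine hydroxylase) turns tyrosine into L-DOPA and is the rate-limiting step of the pathway. Ddc (aromatic L-amino acid decarboxylase) makes dopamine from L-DOPA and serotonin from 5-hydroxytryptophan, Dbh (dopamine beta-hydroxylase) turns dopamine into noradrenaline inside storage vesicles, and Pnmt (phenylethanolamine N-methyltransferase) turns noradrenaline into adrenaline. Chromaffin cells of the adrenal medulla hold all these enzymes, sympathetic and brainstem noradrenergic neurons stop at noradrenaline, and dopamine neurons stop at dopamine. Kidney tubules take up L-DOPA and decarboxylate it. Adra1b encodes the alpha-1B adrenergic receptor, which couples to Gq and raises intracellular calcium, and in hepatocytes it is a route to glycogen breakdown.

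In build GRCm38.p6 Th lies on chromosome 7 from 142892779 to 142899995, Ddc on chromosome 11 from 11814101 to 11898144, Dbh on chromosome 2 from 27165507 to 27183204, Pnmt on chromosome 11 from 98386623 to 98388180 and Adra1b on chromosome 11 from 43774605 to 43901250. The 250 bases before each start annotated by RefSeq in that build are shown for Ddc and Adra1b, the members with the clearest daily waves below, and for Th, which had none. RefSeq promoters were matched to 5 of the 8 genes, with 7 starts in all. All the sequences shown run 5′ to 3′ along the minus strand, and each of Ddc and Adra1b has an outer (1) and an inner (2) start. Capitals mark a match to any of 4 motifs, searched on both strands and chosen after the expression values were known: the E-box CACGTG bound by clock activators, the D-box TTATGTAA or TTACGTAA, the core TAGGTCA of the ROR element and the cAMP response element TGACGTCA.
Th (chr7:142899996-142900245): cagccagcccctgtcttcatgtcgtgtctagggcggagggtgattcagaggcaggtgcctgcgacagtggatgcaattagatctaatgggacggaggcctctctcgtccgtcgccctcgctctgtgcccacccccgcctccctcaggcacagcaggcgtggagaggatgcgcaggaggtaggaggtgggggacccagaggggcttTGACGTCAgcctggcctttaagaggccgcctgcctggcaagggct
Ddc 1 (chr11:11898145-11898394): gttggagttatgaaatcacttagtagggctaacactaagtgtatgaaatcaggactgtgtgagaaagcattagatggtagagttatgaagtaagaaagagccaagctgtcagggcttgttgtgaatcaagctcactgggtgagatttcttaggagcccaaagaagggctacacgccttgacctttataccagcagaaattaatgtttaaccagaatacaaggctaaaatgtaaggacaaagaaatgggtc
Ddc 2 (chr11:11890409-11890658): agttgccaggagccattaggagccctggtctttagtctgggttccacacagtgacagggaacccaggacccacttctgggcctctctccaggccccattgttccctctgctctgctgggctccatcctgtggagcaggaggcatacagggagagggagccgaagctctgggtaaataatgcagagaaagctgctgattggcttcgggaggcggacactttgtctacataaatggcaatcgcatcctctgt
Adra1b 1 (chr11:43901238-43901487): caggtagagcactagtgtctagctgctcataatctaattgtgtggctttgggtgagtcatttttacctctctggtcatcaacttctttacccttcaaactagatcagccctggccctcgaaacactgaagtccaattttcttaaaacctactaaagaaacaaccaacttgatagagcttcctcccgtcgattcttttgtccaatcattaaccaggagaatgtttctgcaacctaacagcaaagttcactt
Adra1b 2 (chr11:43836490-43836739): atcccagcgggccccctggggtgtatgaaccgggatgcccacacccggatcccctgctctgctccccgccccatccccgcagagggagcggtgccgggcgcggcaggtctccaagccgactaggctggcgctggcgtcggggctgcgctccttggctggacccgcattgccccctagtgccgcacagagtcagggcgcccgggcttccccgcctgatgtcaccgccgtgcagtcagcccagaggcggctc
The Th promoter held 1 match, the cAMP response element, which begins at position -45 from the start. No match to any of the 4 motifs was found in either window of Ddc or of Adra1b, and none in those of Dbh and Adrb1. Among 32851 RefSeq promoter windows of 250 bases, 6.02% held the E-box, 0.931% a D-box, 2.23% the ROR core and 1.55% the cAMP response element. The windows also differ in base composition, with 40.8% G and C in the outer and 56% in the inner Ddc window, and 41.6% in the outer and 72.8% in the inner Adra1b window. A match is a description of the letters, and its absence from these windows says nothing of which factors act on the gene. With 1 probe set a gene, transcripts from the separate starts cannot be told apart here.

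Intensities are the authors' processed values on a linear scale, and all array medians lay between 95.2 and 106.6. Marker means were highest in the labelled tissue for the adrenal gland (adrenal cortex markers, mean log2 intensity 12.08), liver (hepatocyte markers, 13.68), kidney (tubule markers, 12.33) and heart (cardiomyocyte markers, 12.20). Of the 288 arrays, 25 stood apart from the others of their tissue by their overall correlation or by markers of another cell type. Among them were adrenal gland at CT28, CT50 and CT52, aorta at CT24, heart at CT26 and CT52, and liver at CT34. The rule sets an array against the spread of its own tissue, so a marker that varies over many arrays can flag none. Hepatocyte markers ran from a mean log2 intensity of 6.22 to 12.75 over the adrenal arrays and from 6.55 to 11.12 in aorta. No array of either tissue stood apart by these markers, so leaving out the arrays that stood apart need not remove that variation. No time was sampled with more than 1 array in a tissue, so the tests below set a fitted curve against the scatter of 24 pools about it.

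The adrenal gland had the highest level of Th, Dbh and Pnmt, and the liver had the highest level of Ddc and Adra1b. These levels are a description, since the authors may have normalized each tissue apart, and in bulk tissue fewer cells of a type and less RNA per cell cannot be told apart. Neighbours in the order of tissues are called separate only where the ranges over 24 arrays do not meet, which held for 9 of 55 neighbouring pairs of the 5 genes, and for 9.63% of such pairs over all genes.

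Th intensity in the adrenal gland had a lowest value of 1525, a median of 2309 and a highest value of 2863. In the hypothalamus the corresponding values were 435.2, 607.4 and 998.4, and in the brainstem they were 194.5, 307.5 and 451.1. The 3 ranges of values are in this order, and the adrenal range met neither of the others, while those of hypothalamus and brainstem met. The cerebellum followed with a mean log2 intensity of 7.41 ± 0.11 (SD, n = 24 arrays), below the whole brainstem range. Aorta came next at 6.65 ± 0.55, and its highest array, 316.1 at CT24, lay above the lowest of the brainstem. Means in the remaining 7 tissues lay between 5.90 in lung and 6.27 in skeletal muscle, with ranges that met.

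Ddc was spread over more organs than Th. Its intensity in liver had a lowest value of 643.0, a median of 2162 and a highest value of 3357, and in kidney 487.5, 822.0 and 1103. The liver and kidney ranges met, and so did those of kidney, hypothalamus (mean log2 intensity 9.01 ± 0.23), adrenal gland (8.81 ± 0.24) and brainstem (8.45 ± 0.15; SD, n = 24 arrays each). Heart followed at 6.78 ± 0.15, below every brainstem array and above every array of white adipose, the next tissue by its mean, while the aorta array at CT24, with 104.1, lay inside the heart range. The other 6 tissues had means between 5.41 and 5.78.

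Dbh intensity in the adrenal gland had a lowest value of 1771, a median of 2351 and a highest value of 2869. In the brainstem, which holds the noradrenergic locus coeruleus, it had 155.8, 177.5 and 229.3. These 2 ranges did not meet. Aorta had a median of 36.1 but a highest value of 314.7 at CT24, the time at which Th was also highest there. The other 9 tissues had mean log2 intensities between 4.69 and 5.42.

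Pnmt had a lowest adrenal intensity of 307.2, a median of 827.3 and a highest of 1500. Every adrenal array was above every array of any other tissue. Skeletal muscle was next with a mean log2 intensity of 5.94 ± 0.14, followed by aorta at 5.72 ± 0.17 and heart at 5.68 ± 0.14 (SD, n = 24 arrays each), and the remaining 8 tissues had means between 4.98 and 5.32.

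Adra1b intensity in liver had a lowest value of 908.7, a median of 1425 and a highest value of 1739. Heart had 250.9, 287.5 and 341.0, hypothalamus 174.6, 207.0 and 239.8, and brainstem 146.4, 161.0 and 173.7. None of these 4 ranges met its neighbour, the clearest order of tissues among the 5 genes. The adrenal gland came next with values from 64.3 to 180.8 and a mean log2 intensity of 6.58 ± 0.30, and the other 7 tissues had means between 5.82 and 6.47.

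The highest tissue exceeded the second by 3.45-fold for Th, 2.36-fold for Ddc, 12.6-fold for Dbh, 13.6-fold for Pnmt and 4.63-fold for Adra1b. With all 288 arrays brought to 1 distribution by quantile normalization, the tissues at the top and in second place were the same. The ratios then were 5.21-fold for Th, 1.61-fold for Ddc, 17.3-fold for Dbh, 17.7-fold for Pnmt and 2.87-fold for Adra1b.

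**Figure D1:**
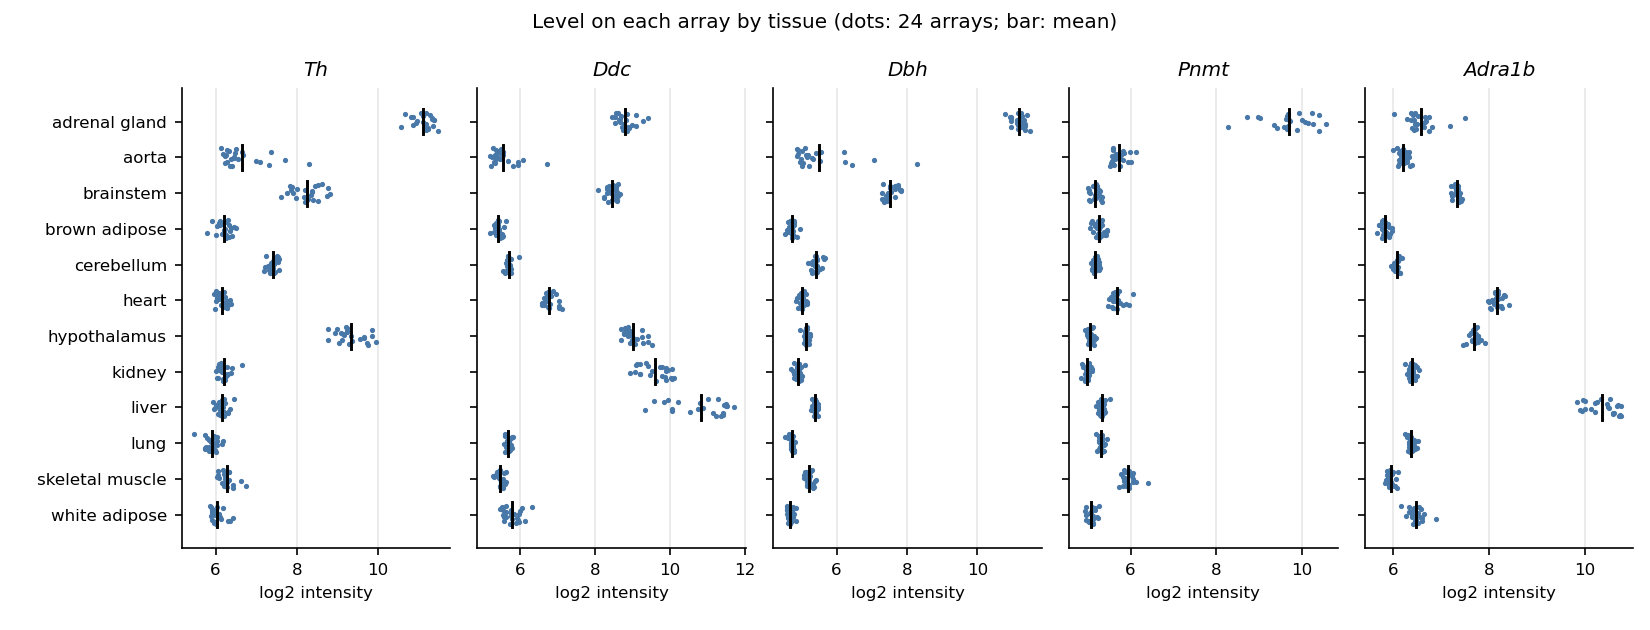
Intensity of Th, Ddc, Dbh, Pnmt and Adra1b on a log axis in each of 12 tissues, with 1 point per array and 24 arrays per tissue. The adrenal arrays lie highest for Th, Dbh and Pnmt, the liver arrays for Ddc and Adra1b, and single aorta arrays reach 316.1 for Th and 314.7 for Dbh.

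Over the 12 tissue means, the genes with the most similar order of levels were found among 15817 genes whose means spanned at least 1 log2 unit. For Th they were Chrna3, a nicotinic receptor subunit (Pearson r = 0.98), Npy, which encodes neuropeptide Y (0.96), and Dlk1 (0.96). For Ddc they were Tm2d3 (0.92), Pcbd1, which recycles the cofactor tetrahydrobiopterin (0.91), and Catsperd (0.90). For Dbh they were Agtr2, an angiotensin receptor (0.96), Prss35 (0.95) and Acan (0.94). The nearest to Pnmt were Akr1cl (0.98), Hsd3b1 (0.97) and Cyp11b1 (0.97), where Hsd3b1 and Cyp11b1 encode steroid enzymes of the adrenal cortex. For Adra1b they were Gfra1 (0.92), Cope (0.88) and Hspa4 (0.87). These correlations rest on 12 points that share the tissues, and they are descriptions.

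Whether each gene followed a 24 h wave was tested within each tissue by limma's moderated F test on a cosine and a sine term, with p-values adjusted by the Benjamini-Hochberg method over all 19938 genes, and a wave is called at an adjusted p under 0.05. Of 60 gene and tissue pairs 6 were called, where 11% of such pairs over all genes were: Ddc and Adra1b in liver, Ddc in kidney, Pnmt in adrenal gland, Adra1b in heart and Dbh in cerebellum. In liver this is 2 of 5 members, where 26.8% of all genes were called. It is 1 of 5 in kidney (25.8% of all genes), heart (8.64%), adrenal gland (5.89%) and cerebellum (5.49%). It is 0 of 5 in lung (20.9%), brown adipose (16.5%), skeletal muscle (5.12%), aorta (5.09%), white adipose (4.85%), brainstem (4.78%) and hypothalamus (1.8%). At an unadjusted p under 0.05 the count was 11 of 60, and the share of all genes at that threshold is not given here.

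Ddc in liver had the highest fold. Its intensity reached 2720 at CT24 and fell to 643.0 at CT34 on the first day, and it reached 3357 at CT42 and fell to 764.4 at CT58 on the second. High values came in the late subjective night and low values in the late subjective day on both days. The fitted wave had a peak-to-trough fold of 3.48 (95% interval 2.78 to 4.36) and a peak at CT21.6 (SE 0.33 h), with an adjusted p of 1.94e-08. The liver array at CT34, the lowest, is also one that stood apart from the other liver arrays, and the wave passed the test without it and in each day alone.

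Ddc in kidney moved by less and later. It was highest at CT24 with 1103 and lowest at CT38 with 487.5 on the first day, and highest at CT48 with 1057 and lowest at CT58 with 551.6 on the second. The highs fell at the start of the subjective day in both cycles. The fold was 2.00 (95% interval 1.84 to 2.16) and the peak was at CT0.49 (SE 0.22 h), with an adjusted p of 1.46e-12. Kidney peaked 2.92 h after liver, and the difference between the Ddc waves of liver and kidney passed the test of the difference itself (adjusted p = 2.47e-11), as it did for 15.6% of all genes in that pair of tissues.

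Adra1b in liver was highest at CT18 with 1724 and lowest at CT34 with 960.1 on the first day, and highest at CT44 with 1739 and lowest at CT56 with 908.7 on the second. As for Ddc, late subjective night was high and late subjective day low. The fold was 1.75 (95% interval 1.60 to 1.91) and the peak was at CT21.6 (SE 0.30 h), with an adjusted p of 3.79e-09. The peak times of Ddc and Adra1b in liver thus lay within their standard errors, and the values of the genes correlated over the 24 liver arrays (r = 0.91, a description of arrays that share pools). The sizes differed: the ratio of Ddc to Adra1b had a 24 h fold of 1.99, with an adjusted p of 1.33e-05 when time points were shuffled 100000 times. That ratio was 1 of 4 tested, all chosen after the waves were known.

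Adra1b in heart had intensities from 250.9 to 341.0 with a median of 287.5. The first day ran from a high of 341.0 at CT30 to a low of 250.9 at CT38, and the second from 265.9 at CT42 to 324.2 at CT52. The fold was 1.15 (95% interval 1.07 to 1.24) with a peak at CT3.53 (SE 0.94 h) and an adjusted p of 0.0243. The call ended when the heart arrays at CT26 and CT52, which stood apart by markers of liver and kidney, were left out (adjusted p = 0.0969). It also ended on ranks (0.0631) and, with 12 arrays each, in the first 24 h alone (0.109) and the second (0.504). The waves of Adra1b in liver and heart peaked 5.94 h apart and differed in the test of the difference (adjusted p = 6.16e-13), as did those of 18.5% of all genes in that pair.

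Pnmt in the adrenal gland was highest at CT36 with 1500 and lowest at CT28 with 307.2 on the first day, and highest at CT58 with 1350 and lowest at CT52 with 424.1 on the second. The lowest arrays of both days fall at the same hour of the subjective day, and the highest lie close to the change from subjective day to night. The fold was 2.26 (95% interval 1.70 to 3.01) with a peak at CT15.1 (SE 0.65 h) and an adjusted p of 0.00175. Without the arrays at CT28, CT50 and CT52, which stood apart and include the lowest of each day, the fold was 1.77 and the adjusted p 0.0291. With 12 arrays each, neither day alone passed (adjusted p = 0.0938 on the first and 0.216 on the second), while the fitted peaks were CT15.0 and CT15.2.

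**Figure D2:**
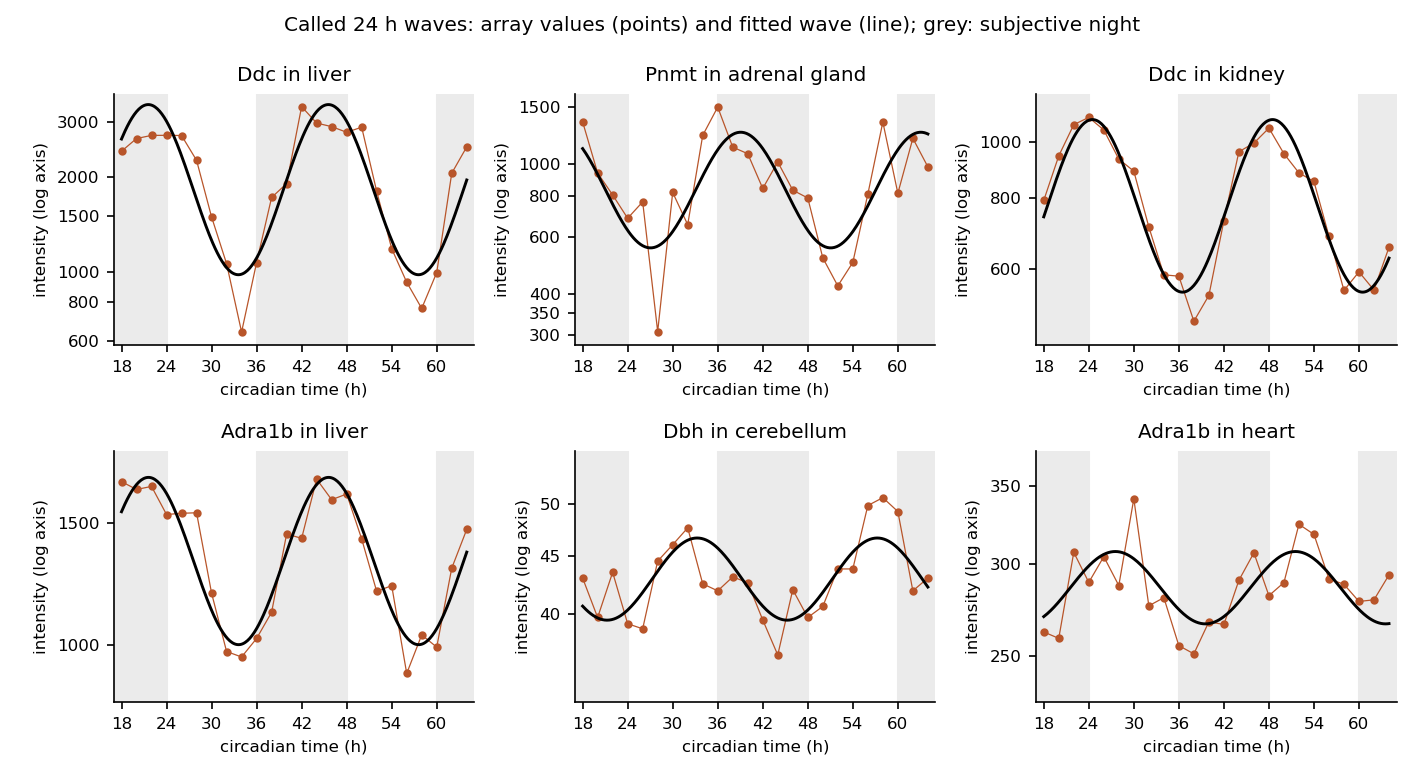
Intensity by circadian time for the 6 pairs of gene and tissue with a called 24 h wave, 1 array per point, with the fitted 24 h wave as a line. Ddc and Adra1b in liver share a peak at CT21.6, Ddc in kidney peaks at CT0.49 and Pnmt in adrenal gland at CT15.1.

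Th had no called wave, and Dbh had 1. Th was called in 0 of 12 tissues at the threshold, and its highest fold was 1.34 in aorta (adjusted p = 0.743). In the adrenal gland, its main site, the Th fold was 1.22 (95% interval 1.02 to 1.45; adjusted p = 0.329). The lowest adjusted p for Th was 0.0503 in brown adipose, with a fold of 1.21 and a peak at CT19.1, and it went below 0.05 in 7 of 11 alternative settings. Th intensities there ran from 55.5 to 90.2, below the lowest array median of 95.2. The adjusted p was 0.112 with skeletal muscle markers as a covariate, and the mean of these markers in brown adipose ran from 6.60 to 11.77 on the log2 scale. Dbh was called in cerebellum, with a fold of 1.18 (95% interval 1.11 to 1.26), a peak at CT9.26 (SE 0.74 h) and an adjusted p of 0.00496. Its intensities there ran from 36.8 to 50.6, below the lowest array median of 95.2. The mean log2 intensity of Dbh was 5.42 in cerebellum, against 5.39 in liver and 5.22 in skeletal muscle, so this wave lies at a low level. The call did not hold on ranks (0.0699) or in the first 24 h alone (0.653). The highest Dbh fold was 1.60 in aorta (95% interval 1 to 2.93; adjusted p = 0.701), which did not pass. In the adrenal gland the Dbh fold was 1.09 with an adjusted p of 0.731.

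**Figure D3:**
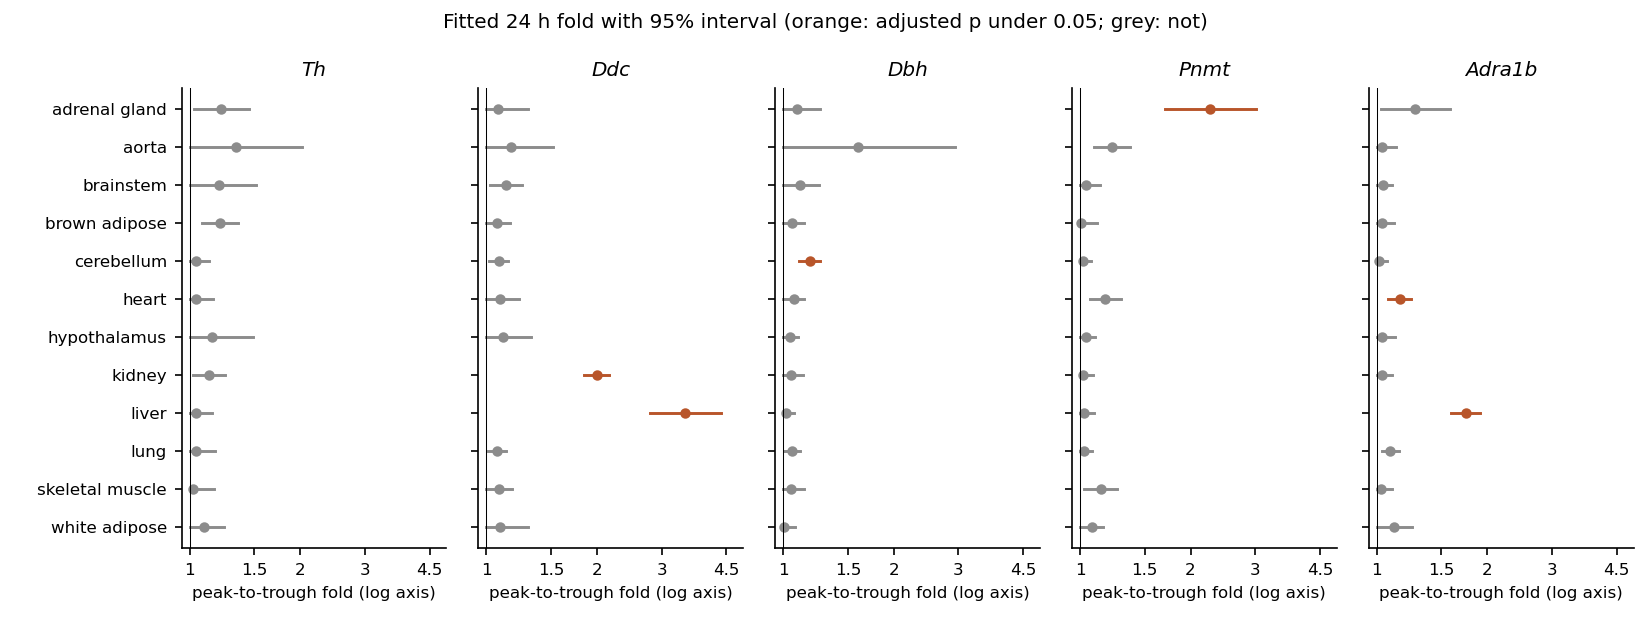
Fitted 24 h peak-to-trough fold on a log axis with its 95% interval, for 5 genes in 12 tissues, with called waves in orange and all others in grey. Ddc in liver (3.48), Pnmt in adrenal gland (2.26), Ddc in kidney (2.00) and Adra1b in liver (1.75) lie farthest from 1 among the called waves, and the interval of Dbh in aorta is the widest of the Dbh panel.

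In the adrenal gland the 24 h fold of Pnmt was tested against each enzyme before it as a ratio. Time points were shuffled and p-values adjusted over the 4 ratios. These ratios were chosen after Pnmt alone among the enzymes had a called adrenal wave, so a wave in them could be foreseen. All 24 arrays were used, with those at CT28, CT50 and CT52 that stood apart. The ratio of Pnmt to Th had a 24 h fold of 2.29 (adjusted p = 1.33e-05), Pnmt to Dbh 2.10 (1.33e-05) and Pnmt to Ddc 2.43 (9e-05), where 1e-05 is the smallest unadjusted p that the shuffles can give. Array by array, Dbh correlated with Th (r = 0.74) and with Pnmt (0.67), Th with Pnmt (0.53), and Ddc with Th (0.27), Dbh (0.06) and Pnmt (-0.01), as a description over 24 arrays.

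**Figure D4:**
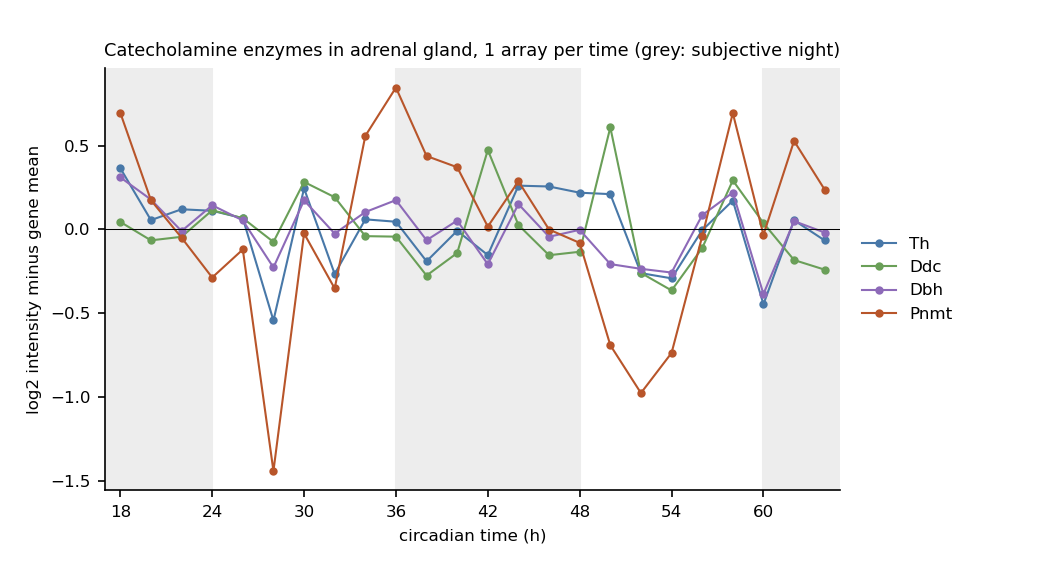
Log2 intensity of Th, Ddc, Dbh and Pnmt in the adrenal gland minus the gene's mean, by circadian time, with 1 array per point and subjective night in grey. Pnmt swings farthest, with its lowest points at CT28 and CT52, while Ddc has its highest points at CT42 and CT50.

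Difference in the 24 h wave between the 12 tissues was tested in 1 limma fit to all 288 arrays. It passed for 3 of the 5 members, Ddc (adjusted p = 1.13e-29), Pnmt (1.25e-21) and Adra1b (1.08e-15), while 49.6% of all genes passed. Dbh (0.38) and Th (0.437) did not pass, though Dbh did without the arrays that stood apart (0.000343). Among 66 pairs of tissues, Ddc differed in 21, and each of these held liver or kidney. Pnmt differed in 11, each with the adrenal gland, and Adra1b in 16, of which 11 held liver. Dbh differed in 4 pairs and Th in 0. Over all genes, 9.82% of tests over the 66 pairs passed. With circadian time as a block, so that the 12 arrays of a time share a term, Ddc, Pnmt and Adra1b passed and Dbh and Th did not, and 51.4% of all genes passed.

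A 12 h wave, tested beside the 24 h terms, was called in 1 of 60 pairs, Ddc in liver, where 0.231% of all genes were called. The share was 7.45% in skeletal muscle, 5.25% in brown adipose, 0.0652% in lung, 0.00502% in brainstem and in heart, and 0% in the other 6 tissues. For Ddc in liver the 12 h fold was 1.55 (95% interval 1.34 to 1.78) with peaks at CT3.56 and 12 h later, and an adjusted p of 0.0119. On ranks that p was 0.923. A step in level from the first 24 h to the second was called in 0 of 60 pairs by limma. With an unadjusted limma p under 0.05 the count was 13, and the share of all genes at that threshold is not given here. Steps were called for 5% of all genes in kidney, 2.12% in skeletal muscle, 0.0502% in brainstem and 0% in each of the other tissues. The lowest adjusted p for a step was 0.0536 for Dbh in brainstem, where the mean log2 intensity was 7.64 in the second 24 h and 7.41 in the first.

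Several members varied between arrays together with the mean of a cell type marker list, and these relations were measured in 14 comparisons. Those to chromaffin markers were planned. Those to hepatocyte, ganglion and dopamine neuron markers, given further below, were chosen after values were seen, and their p-values do not allow for that choice. The share of all genes that follow a marker mean is not given here. Chromaffin markers (7 of 8 measured) had a mean log2 intensity from 9.56 to 10.11 over the adrenal arrays. Dbh followed it with r = 0.91 and rho = 0.90 (adjusted permutation p = 1.75e-05 and 2.33e-05), Th with r = 0.71 and rho = 0.66 (0.00014 and 0.00101), and Pnmt with r = 0.63 and rho = 0.57 (0.00112 and 0.00561). Without the arrays at CT50 and CT60, which were farthest from the median, r was 0.88, 0.83 and 0.68 in the same order of genes. Ddc had r = -0.11 and rho = 0.17 (0.595 and 0.46), and r = 0.19 without those arrays. With the chromaffin mean as a covariate the Pnmt wave had a fold of 2.08 and an adjusted p of 9.74e-06. With the adrenal cortex mean as a covariate its fold was 2.09.

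Over the adrenal arrays the genes with the most similar values were also found. For Th they were Slc38a11 (r = 0.90), Npy (0.86) and Taf9b (0.83). For Dbh they were Ptprn, a protein of dense-core vesicles (0.96), Dlk1 (0.91) and Gal, which encodes galanin (0.91). For Pnmt they were Fads1 (0.95), Dhcr7 (0.90) and Fads2 (0.90), which encode a pair of fatty acid desaturases and an enzyme of cholesterol synthesis. All of these rest on the same 24 arrays.

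Hepatocyte markers (6 of 6 measured) ran from a mean log2 intensity of 6.22 to 12.75 over the adrenal arrays, against 13.68 in liver, with a gap between 8.69 and 9.74 that leaves 14 arrays above and 10 below. Over all 24 arrays Adra1b had r = 0.71 and rho = 0.82 with the marker mean (adjusted permutation p = 4.67e-05 and 2.33e-05). Ddc had r = 0.19 and rho = 0.11 (0.4 and 0.598), and Pnmt r = -0.45 and rho = -0.39 (0.0309 and 0.0679). These values span the gap, so each side is also given. Above the gap Adra1b had r = 0.70 and rho = 0.60 with the marker mean (adjusted permutation p = 0.02 and 0.0884). Below it Adra1b had r = -0.45 and rho = -0.26 (0.252 and 0.55). The array at CT50 was highest both for these markers and for Adra1b, at 180.8. Ddc had r = 0.60 and rho = 0.49 above the gap (0.0593 and 0.157) and r = -0.46 and rho = -0.25 below it (0.252 and 0.55). Pnmt had r = -0.53 and rho = -0.54 above it (0.108 and 0.122) and r = -0.10 and rho = 0.13 below it (0.791 and 0.734). With the hepatocyte mean as a covariate the Pnmt wave had a fold of 2.10 and an adjusted p of 0.00271. The part of these markers in the adrenal levels of Ddc and Adra1b was not tested.

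In aorta the markers of sympathetic and sensory ganglia (5 of 6 measured) ran from 6.19 to 7.26 on the log2 scale, with the highest mean at CT24. Th had r = 0.93 and rho = 0.74 with this mean (adjusted permutation p = 1.75e-05 and 0.00014), Ddc r = 0.88 and rho = 0.74 (1.75e-05 and 0.00014) and Dbh r = 0.93 and rho = 0.62 (1.75e-05 and 0.00211). Without CT24 and CT34, r was 0.80, 0.65 and 0.75. Dbh intensity there was 73.8 or higher on 5 arrays and 46.7 or lower on the others. Th, Ddc and Dbh also correlated with each other there (r = 0.96 for Th and Dbh, 0.91 for Ddc and Dbh, 0.89 for Th and Ddc).

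In the hypothalamus the markers of midbrain dopamine neurons (6 of 6 measured) ran from 8.49 to 9.29, and Th followed them with r = 0.96 and rho = 0.92 (adjusted permutation p = 1.75e-05 and 2.33e-05). Ddc there had r = 0.89 and rho = 0.90 (1.75e-05 and 2.33e-05). Without CT26 and CT40, r was 0.94 for Th and 0.85 for Ddc. In the brainstem the same mean ran from 8.18 to 8.76, with a gap that leaves 16 arrays above and 8 below. Over all 24 brainstem arrays Th had r = 0.91 and rho = 0.89 (adjusted permutation p = 1.75e-05 and 2.33e-05). Ddc had r = 0.88 and rho = 0.86 (1.75e-05 and 2.33e-05). These values span the gap, so each side is also given. Th had r = 0.71 and rho = 0.70 above the gap (adjusted permutation p = 0.02 and 0.0304) and r = 0.38 and rho = 0.40 below it (adjusted exact permutation p = 0.402 and 0.467). Ddc had r = 0.61 and rho = 0.67 above the gap (0.0401 and 0.0304) and r = 0.67 and rho = 0.52 below it (exact, 0.112 and 0.328). The part of these markers in the spread of Th and Ddc in brain and aorta was not tested.

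**Figure D5:**
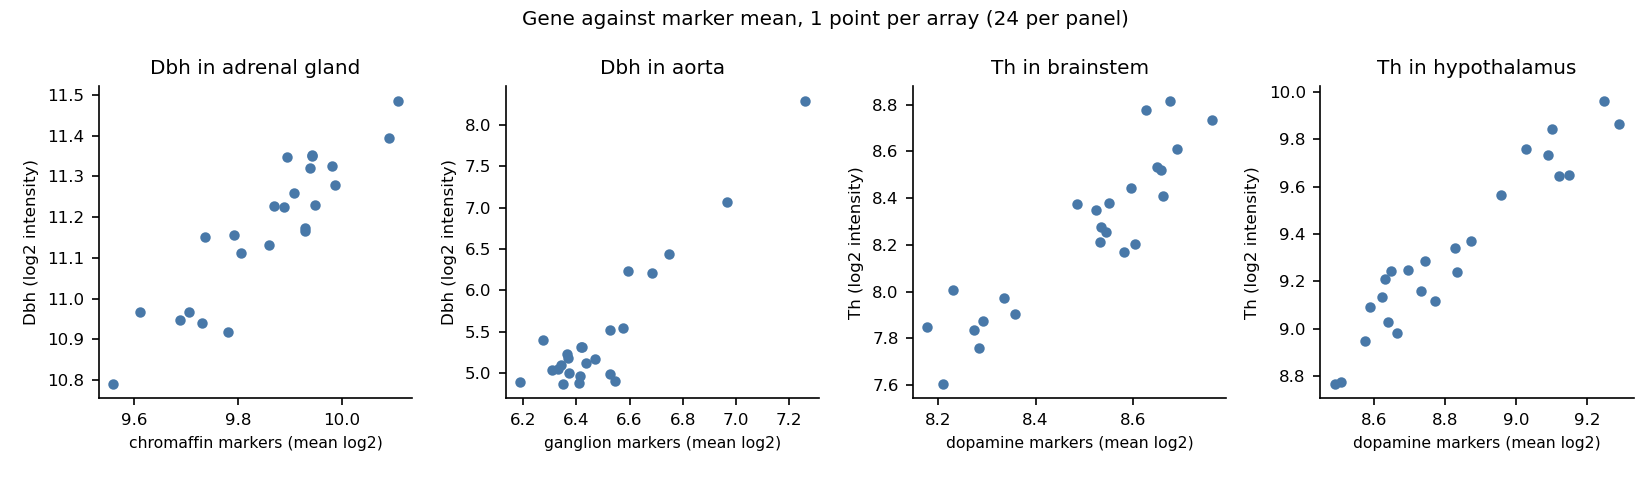
Log2 intensity of a gene against the mean log2 intensity of a marker list, 1 point per array and 24 arrays per panel, for Dbh in adrenal gland and aorta and Th in brainstem and hypothalamus. Points run upward in each panel, with 1 aorta array far from the rest at a marker mean of 7.26 and with a gap between 8 and 16 brainstem arrays.

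Genes around the pathway were counted from 6 lists with 39 measured genes. The lists were chosen with earlier results of these data known, and the shares of all genes include genes of any intensity. Called 24 h waves numbered 13 of 39 in liver, 13 in kidney, 12 in lung, 11 in brown adipose, 6 in heart, 6 in aorta, 5 in adrenal gland, 5 in skeletal muscle, 2 in cerebellum, 2 in white adipose and 0 in brainstem and hypothalamus. As shares these were 33.3% in liver against 26.8% of all genes, 33.3% in kidney against 25.8%, 30.8% in lung against 20.9% and 28.2% in brown adipose against 16.5%. They were 15.4% in heart against 8.64%, 15.4% in aorta against 5.09%, 12.8% in adrenal gland against 5.89% and 12.8% in skeletal muscle against 5.12%. In cerebellum they were 5.13% against 5.49%, in white adipose 5.13% against 4.85%, in brainstem 0% against 4.78% and in hypothalamus 0% against 1.8%. The median fold of the 39 genes was 1.09 in liver, against 1.09 over all genes, and 1.08 in lung, against 1.07. Without the arrays that stood apart the count was 2 in skeletal muscle (2.65% of all genes) and 2 in hypothalamus (3.36%).

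Genes of receptor signalling made up most of these calls, with 55 of 180 gene and tissue pairs, against 11% of pairs over all genes. Because the list was chosen with earlier results known, and the 11% covers genes of any intensity, this difference in shares is a description. At least 1 call was found for 14 of 15 genes, a count with no share over all genes to set beside it. Grk5, a kinase that phosphorylates activated receptors, was called in 8 tissues with peaks from CT21.7 to CT0.62, and its highest fold was 2.60 in liver (95% interval 2.16 to 3.13, peak CT23.3, adjusted p = 6.11e-08). Rgs2, which shortens Gq signals, was called in 6 tissues, with the highest fold of 1.67 in lung at CT6.65. Pde3b, which breaks down cAMP, was called in 6 tissues, with the highest fold of 1.86 in skeletal muscle. Adcy3, an adenylyl cyclase that makes cAMP, had a fold of 1.90 in brown adipose with a peak at CT9.22. Grk5 and Adra1b thus both had called waves in liver, with peaks at CT23.3 and CT21.6.

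The counts of the other lists are likewise to be read against 11% of pairs over all genes. Cofactor supply had 6 of 72 pairs called. Gch1, the first enzyme of tetrahydrobiopterin synthesis, on which Th depends, had a fold of 1.69 in liver with a peak at CT5.99 and 1.49 in the adrenal gland with a peak at CT22.3 (adjusted p = 0.0416). Vesicle storage and uptake had 5 of 108 pairs called, with Cyb561, which supplies electrons for Dbh, at 1.47-fold in aorta with a peak at CT12.0 and 1.37-fold in heart. Breakdown had 5 of 24 called, with Maoa, the monoamine oxidase that degrades noradrenaline, at 1.27-fold in the adrenal gland with a peak at CT10.1 and 1.18-fold in kidney. The identity factors of chromaffin and sympathetic cells had 4 of 72 called, with Gata2 at 1.23-fold in brown adipose and Gata3 at 1.20-fold in lung. Adra2c, the other adrenergic receptor measured, was called in 0 of 12 tissues.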

How the data were processed

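Values are intensities on a linear scale that the authors deposited, 1 per probe set and array. The submitters' processing notes name Affymetrix Expression Console and GCRMA; versions, order of steps and any scaling are not given in the sources used here. Tests had been planned for log2 values, so log2 of each value was taken, without a pseudocount (none is 0). Of 35556 probe sets, 21789 carried 1 gene symbol; the probe set of highest mean stands for a gene that has several, which gives 19938 genes, all tested whatever their intensity. Every array was mapped to its tissue and time by its labels.

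Waves of 24 h were fitted within each tissue with limma 3.58.1 (R 4.3.3) and tested by the moderated F test with a trend on mean expression, adjusted by Benjamini-Hochberg over all genes. Differences between tissues were tested by 22 interaction coefficients or matching contrasts over all arrays. Permutation tests used 100000 resamples (numpy 2.4.6), or were exact under 10 arrays (scipy 1.17.1). Those of correlations were two-sided, and those of ratios counted shuffles with a wave statistic at least as large as the observed one. Their p-values were adjusted over 14 relations, 10 relations on either side of a gap, and 4 ratios. The relations to hepatocyte, ganglion and dopamine neuron markers, the split at the gap, the ratios and the motifs were chosen after values were seen. An array stood apart where the mean of a marker list was more than 1 log2 unit, and more than 5 scaled median absolute deviations, from its tissue's median. It also stood apart where its median correlation to the other arrays was more than 0.003, and more than 5 scaled median absolute deviations, below its tissue's median.

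All members are described in every tissue. From the pathway lists, genes called in at least 6 tissues are named, with some of the genes of large called fold. Not every called gene is described, and Maob, called in 3 tissues, is among those left out. For each member 3 nearest genes are named. The members and lists were chosen with earlier results of these data known. There are no replicates at a time point, so p-values rest on the scatter of pools about the curve, and precision is limited by how many arrays there are. On values simulated with the means and scatter of liver, the fit called 82% of 1.3-fold, 100% of 1.5-fold, 98% of 2-fold and 100% of 3-fold waves. It made 13 false calls among unchanged genes. No other tissue was simulated, so these shares do not cover tissues with more scatter, where the residual SD reached 0.82 for Dbh in aorta.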

Additional observations from a re-analysis of the deposited data

Results flagged for a closer look

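The 24 h wave of 3 genes differed between the 12 tissues, by a test of the difference itself (limma, 22 interaction coefficients). The adjusted p was 1.13e-29 for Ddc, 1.25e-21 for Pnmt and 1.08e-15 for Adra1b, and 49.6% of all genes passed the same test. Ddc had a fold of 3.48 in liver and 2.00 in kidney and at most 1.17 in the other 10 tissues. Pnmt had a fold of 2.26 in the adrenal gland and at most 1.22 elsewhere, and Adra1b 1.75 in liver and at most 1.27 elsewhere.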

How the results depend on the processing

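Over 11 alternatives run in all tissues, between 4 and 9 of the 60 gene and tissue pairs were called. Among the 6 called pairs no peak moved by more than 6 h, and peak shifts of the other pairs were not counted. Of 79 values for the 6 called pairs, 71 kept the call and 8 lost it: Pnmt in the adrenal gland in either day alone, Dbh in cerebellum on ranks and in the first day, and Adra1b in heart on ranks, without the arrays that stood apart and in either day alone. Over all alternatives the fold of Ddc in liver was 2.65 to 3.86, of Ddc in kidney 1.87 to 2.14, of Adra1b in liver 1.51 to 1.79 and of Pnmt in the adrenal gland 1.77 to 2.51. Of 613 values for the other pairs, 16 were newly called, 7 of them Th in brown adipose, and the rest Th in adrenal gland and lung, Pnmt in aorta and Adra1b in lung. The share of all genes called under each alternative is not set beside these counts, so they are not read as results about the members. The count of 12 h waves was 0 on ranks, where the one for Ddc in liver was lost. In the fit on log2 values 8 pairs had an unadjusted limma p under 0.05, and the share of all genes at that threshold is not given here. The count of steps between days was 1 with quantile normalization within a tissue, Dbh in brainstem (adjusted limma p = 0.0423). The share of all genes with a step in that setting is not given here. The causes of these changes were not tested. No paired analysis by replicate number was possible because the labels give none; with circadian time as a block, a setting chosen after seeing the data, the tests of difference between tissues gave the same 3 calls. The planned choice of another probe set could not be run, since each member has 1. Keeping genes above the tissue median leaves 16 of 60 pairs, so low intensity limits what can be said of the rest.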
